A study of Mus musculus with 6 samples.

Results

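The integrin and laminin genes of the mouse prostate were followed in 6 animals. A gene was taken as a member when its symbol in the deposited table was that of an integrin alpha or beta subunit, of the integrin-like gene Itgbl1, or of a laminin alpha, beta or gamma chain. By this rule 39 of the 34745 genes in the table were members, and 38 of them are described and counted here, 28 integrin entries and 10 laminin entries. They carry 37 different symbols, since Itgam occurs under 2 gene identifiers. All animals were male C57BL/6 mice, 6 to 8 weeks old at the start. The 3 mice of the T + E2 group were given slow-release pellets of both testosterone and oestradiol under the skin for 12 weeks, and the study's methods state that the pellet was renewed each month. The 3 mice of the CON group had the skin incision and its closure alone, without a pellet. A pellet without hormone was not among the groups, so the hormones and the pellet itself cannot be told apart. Total RNA of prostate tissue was sequenced, 1 library per mouse, and the comparison asks which transcripts differ in the hormone-treated gland. The study's methods do not state which lobes were taken for RNA.

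Laminins are secreted proteins in which an alpha, a beta and a gamma chain are wound together. They form the sheet of the basement membrane on which epithelium, muscle, nerve and vessel cells sit. Integrins are their main receptors: each is a pair of an alpha and a beta subunit in the cell membrane that binds laminin, collagen, fibronectin or proteins of other cells on the outside, and the actin or keratin skeleton on the inside. In the prostate the basal epithelial cells are held to the basement membrane by laminin and hemidesmosomes, smooth muscle cells are wrapped in basement membranes of their own, and leukocytes carry a separate set of integrins. Laminins are described first, as the ligands, and then the receptors by what they bind.

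Reads counted on genes totalled 14816146 to 16555549 per mouse, and these 38 took 0.169 to 0.185% of the counts in CON mice and 0.195 to 0.219% in T + E2 mice. The limit of detection was set at 3 counts, or 0.181 to 0.202 counts per 1000000 (CPM), and covers counting error only. Prostate markers were present in every mouse. Pbsn, a secretory protein of luminal cells, stood at a mean of 14160.4 CPM in the CON and 1443 CPM in the T + E2 group. Both CON mouse 2 and T + E2 mouse 2 stood apart, because genes of the seminal vesicle summed to 10305 and 641.9 CPM in them, against 0.628 to 4.10 CPM in the other 4. Summed urothelial markers were 422.7 to 642.2 CPM in the CON and 1373 to 1701 CPM in T + E2 mice, and 3 of 4 tested passed as higher, while Upk3a was at 0 in every CON mouse. Summed Schwann cell and nerve markers were 216.6 to 274.3 CPM in the CON and 73.9 to 151.7 CPM in T + E2 mice, and 4 of 7 passed as lower. Of all tested genes 10.4% passed as higher and 9.25% as lower. Without CON mouse 2 and T + E2 mouse 2 these were 5.25% and 3.4%. In that fit 2 urothelial markers passed as higher and 1 Schwann cell and nerve marker as lower. The part of these tissues in the results was not tested. In tissue RNA, fewer cells of a type and less RNA per cell cannot be told apart.

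Of the 38 members described, 36 had enough counts to be tested, and 10 passed at an adjusted p under 0.05. Here and throughout, the adjusted p comes from the quasi-likelihood test of edgeR, corrected by Benjamini-Hochberg over all 15580 tested genes, and a positive log2 fold change means a higher level in the T + E2 group. The members that rose were Itgam, Itgb8, Itgb6, Itga8, Lama5, Itgb1, Itga1 and Itgb5, and those that fell were Itga7 and Itga11. The 8 that rose are 22.2% of the tested members, where 10.4% of all tested genes rose, and the 2 that fell are 5.56%, where 9.25% of all tested genes fell. With the further condition of an absolute log2 fold change over 1, by which genes are called DEGs here, Itgam and Itgb6 remained as higher (5.56% of the tested members against 4.27% of all genes) and Itga11 as lower (2.78% against 3.38%). In 10 members (27.8%) all 3 T + E2 mice lay above all 3 CON mice, as they did for 20.1% of all genes. In 2 members (5.56%) they lay below, as they did for 20.7% of all genes. The median log2 fold change was 0.14 over the tested members, 0.17 over the laminins and 0.11 over the integrins, while it was -0.002 over all genes. With CON mouse 2 and T + E2 mouse 2 both left out, which leaves 4 mice, 2 members passed as higher (Itgam and Lama5) and 0 as lower, while 1354 of all genes passed in place of 3061. With 1 mouse taken out at a time, the number of members that passed was 4 without CON mouse 2 or T + E2 mouse 1, 5 without CON mouse 3, 6 without CON mouse 1, 7 without T + E2 mouse 2 and 10 without T + E2 mouse 3. The last 3 of these counts each include 1 member that did not pass with all mice, which was Itga4, Itga3 and Lama3 in that order. Of all tested genes 19.6% passed with all mice. This share was 13.4% without CON mouse 2, 13.2% without T + E2 mouse 1, 12.2% without CON mouse 3 and 15.7% without CON mouse 1. It was 12.5% without T + E2 mouse 2 and 17.2% without T + E2 mouse 3.

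**Figure D1:**
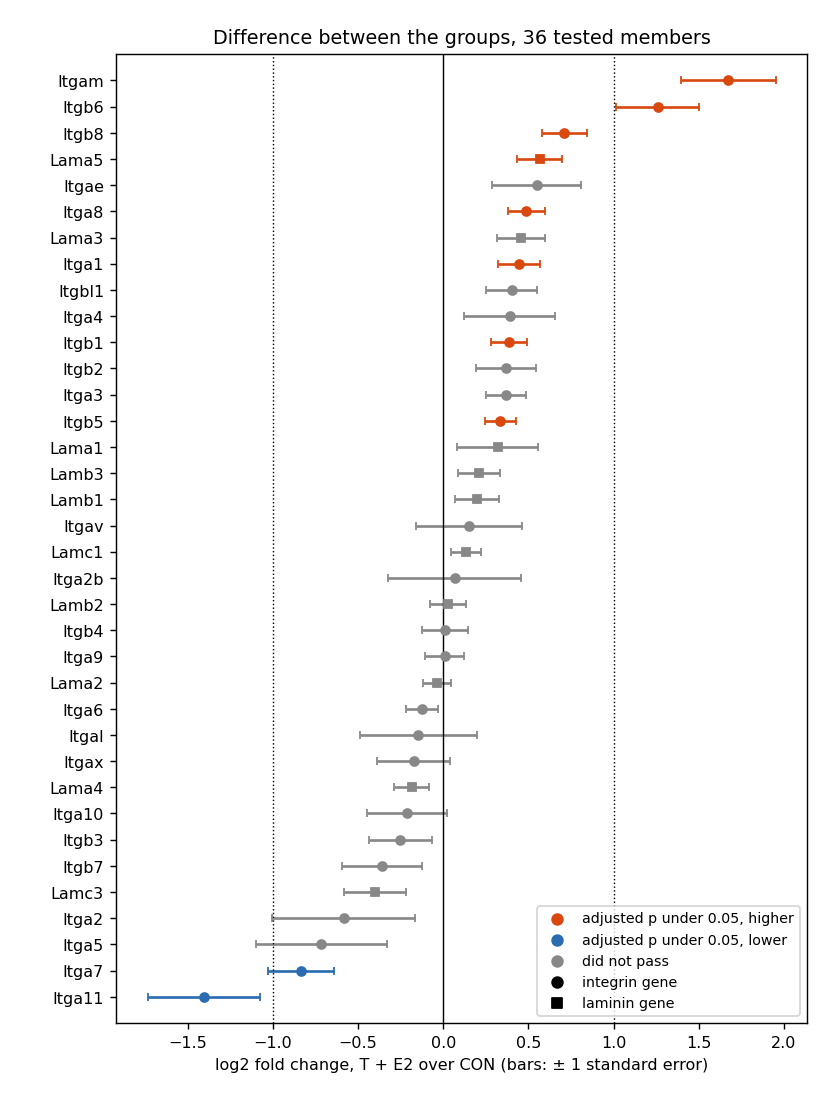
Log2 fold change of T + E2 over CON for the 36 tested members, ordered by size, with bars of 1 standard error; circles are integrin genes, squares laminin genes, and dotted lines mark a log2 fold change of 1 in either direction. Itgam and Itgb6 lie beyond the upper line and Itga11 beyond the lower one, and the 26 grey members did not pass.

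Levels of different genes were compared on the scale of deposited FPKM, which divides the count by gene length and library size. The lengths implied by the FPKM differ for some genes from the exonic bases in GENCODE M21. They were 8117 against 5454 for Itga2b, 8959 against 7111 for Itgb6 and 4214 against 7133 for Itga2. The order of genes with near levels therefore depends on the lengths used. Over all 6 mice and the members described, the mean FPKM was highest for Itgb1 (58.4), a beta subunit shared by many integrins. It was followed by Lamb2 (31.4), Lama5 (24.8), Itga3 (21.3), Itgb5 (21.04) and Lamc1 (15.5). Itga3 and Itgb5 are neighbours whose values overlap within both groups. The lowest mean FPKM of the tested members were those of Itga2b (0.351), the platelet integrin, Itgb6 (0.362) and Itga2 (0.372), so that the tested members spanned a wide range.

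**Figure D2:**
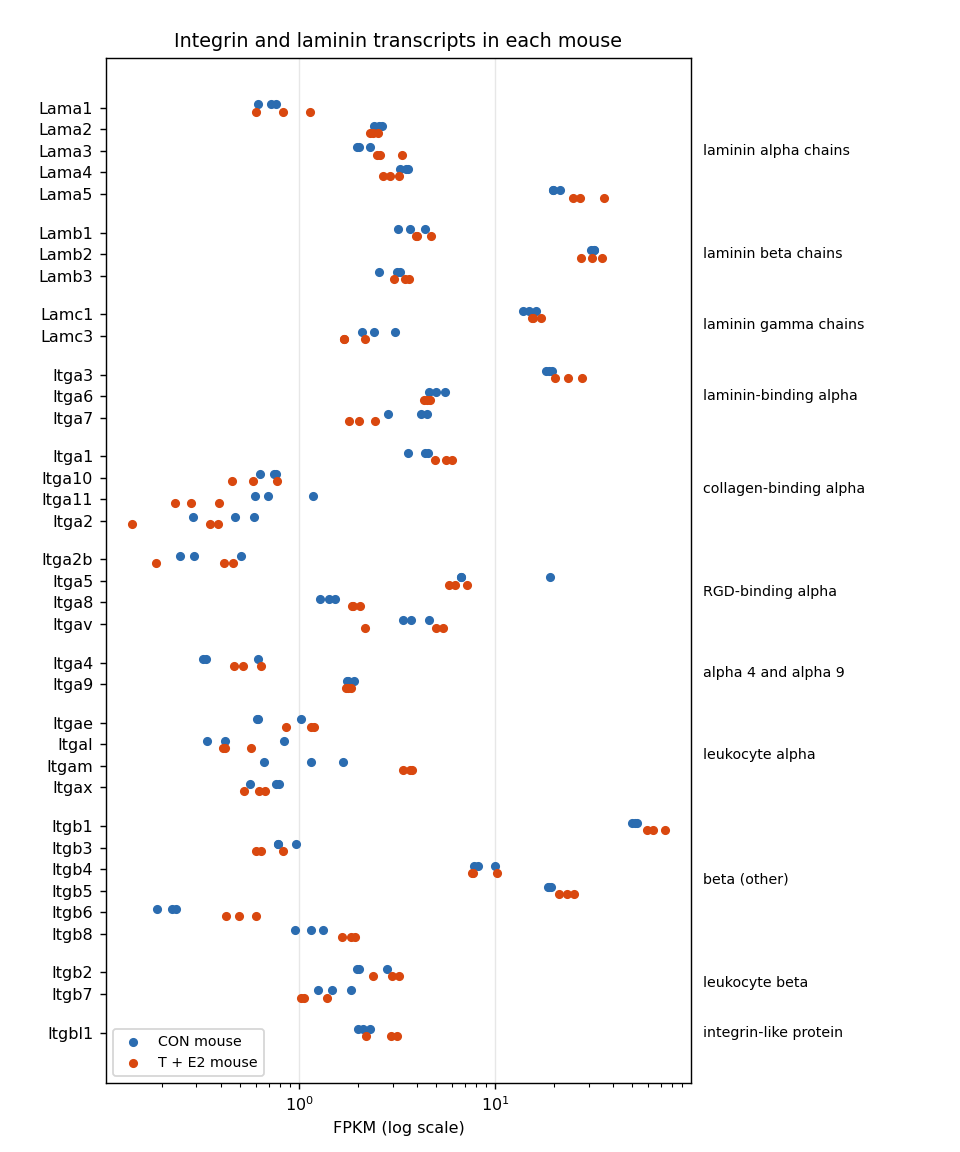
FPKM of each tested member in each mouse on a log scale, grouped by role, with CON mice in blue and T + E2 mice in orange; each point is 1 mouse. Itgb1 lies at the top of the range in every mouse, and the groups are separate for Itgam and Itgb6, while CON mouse 1 stands alone at an FPKM of 19.1 for Itga5.

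Lama5, the alpha chain found in most adult epithelial and vascular basement membranes, rose. It had 258, 238 and 245 CPM in CON mice and 351, 311 and 436 CPM in T + E2 mice (chromosome 2 of GRCm38, 180176373 to 180225859). The groups did not overlap, and T + E2 mouse 3 was the highest. On the log2 scale the change was 0.57 (standard error, SE, 0.13; adjusted p = 0.0212). The call was lost without CON mouse 2 (adjusted p = 0.0655) and without CON mouse 3 (adjusted p = 0.0659). The other alpha chains did not pass. Lama3, a chain of epithelial basement membranes, had 20.8, 21.3 and 24.9 CPM in the CON and 29.0, 36.4 and 26.5 CPM in T + E2 mice, without overlap, at a log2 fold change of 0.46 (SE 0.14, adjusted p = 0.0564). It passed with DESeq2 (adjusted p = 0.0472) and without T + E2 mouse 3 (adjusted p = 0.0419). Lama1, the alpha chain of early embryonic basement membranes, had a log2 fold change of 0.32 (adjusted p = 0.382), Lama2, the chain of muscle and Schwann cells, -0.04 (adjusted p = 0.777), and Lama4, a chain of vessels and other mesenchymal tissue, -0.19 (adjusted p = 0.243). Lamb2 was the beta chain with the highest FPKM. It had 233, 225 and 239 CPM in CON mice and 244, 207 and 259.7 CPM in T + E2 mice, with a log2 fold change of 0.03 (SE 0.10, adjusted p = 0.878). T + E2 mouse 2 was the lowest and T + E2 mouse 3 the highest of all. Lamb1 (log2 fold change 0.20, adjusted p = 0.306) did not pass either. Lamb3, known from epithelia, had a log2 fold change of 0.21 (SE 0.13, adjusted p = 0.274), and its groups overlapped, as did those of the ratio of Lamb3 to Lama3 in FPKM. Lamc1, the most widespread gamma chain, had 162, 148 and 142 CPM in CON mice and 165, 160 and 172 CPM in T + E2 mice. Its groups overlapped, at a log2 fold change of 0.13 (SE 0.09, adjusted p = 0.318). Lamc3, a gamma chain of restricted occurrence, had 13.96, 20.5 and 16.5 CPM in the CON and 15.5, 11.7 and 11.4 CPM in T + E2 mice, at a log2 fold change of -0.40 (SE 0.18, adjusted p = 0.163). In all, 1 of 10 laminins rose and 0 fell by edgeR, where 10.4% of all tested genes rose and 9.25% fell, so the share that rose was near that of all genes. At an unadjusted p under 0.05 the counts were 2 and 0, where 17.4% of all genes were higher and 17.1% lower. With DESeq2 they were 2 and 0 (9.84% and 8.37% of all genes), and limma on log2(FPKM + 0.1) gave 1 and 0 (8.04% and 8.3%).

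Since a laminin needs a chain of each class, the make-up of the alpha and of the beta chains was computed per mouse as the share of each chain in the summed FPKM of the class. Among the alpha chains Lama5 took 71.7, 68.8 and 68.7% in CON mice and 75.9, 71.9 and 80.4% in T + E2 mice, a mean of 69.7% ± 1.71 against 76.1% ± 4.22 (SD, n = 3 each). In the same order of groups the means were 11.9% ± 0.770 and 7.85% ± 1.68 for Lama4 and 8.74% ± 0.430 and 6.36% ± 0.955 for Lama2. For these 3 chains the groups did not overlap. An exact two-sided permutation test over mice gave p = 0.1 for each, the smallest value that 3 against 3 mice can give, and 0.267 after adjustment over the 8 chains. The shares of Lama1 and Lama3 and of the 3 beta chains overlapped between the groups. Lamb2 made up 82.4% ± 2.21 of the beta chains in the CON and 80.4% ± 1.70 in the T + E2 group. A share can fall while the level of the chain does not pass as lower, as for Lama2 and Lama4.

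**Figure D3:**
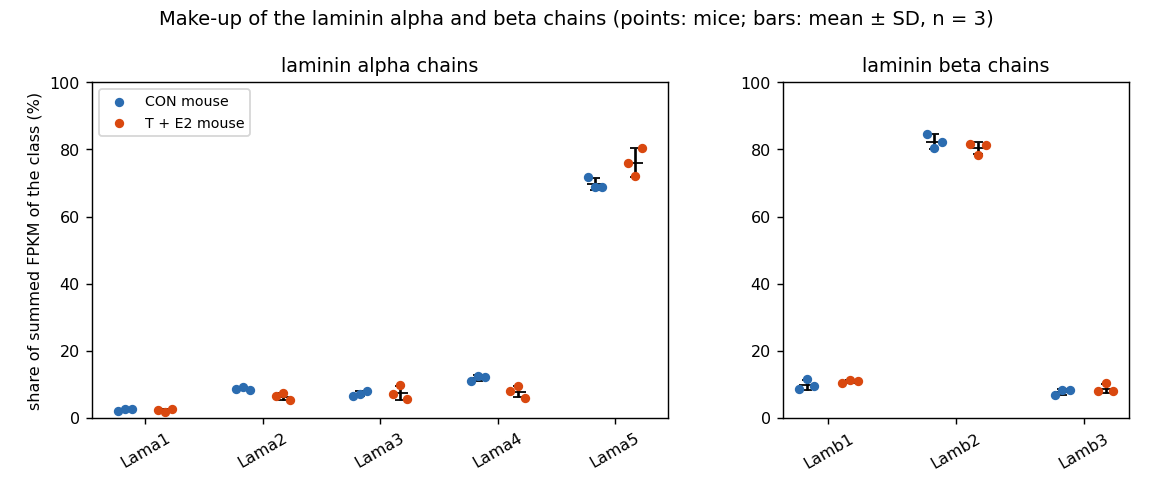
Share of each laminin chain in the summed FPKM of its class, in %, for alpha and beta chains; points are mice, horizontal marks with bars the group mean ± SD (n = 3), CON in blue and T + E2 in orange. Lama5 moves from a mean of 69.7% to 76.1% of the alpha chains, and Lamb2 makes up 82.4% and 80.4% of the beta chains.

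Of the 3 laminin-binding alpha subunits, Itga7 fell and neither of the others passed. Itga7 pairs with Itgb1 and is the laminin receptor of muscle cells. It had 16.4, 17.6 and 11.5 CPM in CON mice and 8.50, 7.30 and 9.67 CPM in T + E2 mice (chromosome 10, 128933813 to 128958277). The highest T + E2 mouse was below the lowest CON mouse. This was a log2 fold change of -0.84 (SE 0.19, adjusted p = 0.0204), a 1.79-fold lower level. Summed smooth muscle markers were 4161 to 5108 CPM in the CON and 3643 to 3967 CPM in T + E2 mice, and overlapped without Acta2. Of the 8 markers 3 (Acta2, Des and Lmod1) passed as lower, where 9.25% of all tested genes fell. Without CON mouse 2 and T + E2 mouse 2, 0 of them passed as lower (3.4% of all genes). The part of muscle content in the Itga7 result was not tested. The Itga7 call was lost when CON mouse 1 (adjusted p = 0.0560), CON mouse 2 (0.0612), T + E2 mouse 1 (0.0572) or T + E2 mouse 2 (0.0726) was left out, with log2 fold changes of -0.72 to -0.84. Itga3, which pairs with Itgb1 in epithelia, was the laminin-binding subunit with the highest FPKM. It had 120.1, 124 and 133 CPM in CON mice and 165, 138 and 184 CPM in T + E2 mice. The groups were separate, and T + E2 mouse 2 was nearest to the CON mice. For Itga3 the log2 fold change was 0.37 (SE 0.12, adjusted p = 0.0635). Itga3 passed with DESeq2 (adjusted p = 0.0341) and without T + E2 mouse 2 (adjusted p = 0.0207). Itga6, the hemidesmosome alpha subunit, had a log2 fold change of -0.13 (adjusted p = 0.376). Its hemidesmosome partner Itgb4 had 0.01 (SE 0.14, adjusted p = 0.963). The ratio of Itga3 to Itga7 in FPKM was 4.20 to 6.86 in CON mice and 11.2 to 11.6 in T + E2 mice.

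The collagen-binding alpha subunits, which all pair with Itgb1, did not move together, as 1 of 4 fell, 1 rose and 2 did not pass. Itga11, a receptor of fibroblasts for fibrillar collagen, fell. The gene (ENSMUSG00000032243, chromosome 9, 62677826 to 62783982, plus strand) had 6.22, 3.61 and 3.20 CPM in CON mice and 1.31, 1.52 and 2.07 CPM in T + E2 mice, from 51 to 94 and from 19 to 31 counts. CON mouse 1 was the highest, and the groups did not overlap. That gave a log2 fold change of -1.41 (SE 0.33, adjusted p = 0.0214), a 2.65-fold lower level. The call was lost without CON mouse 1 (log2 fold change -1.06, adjusted p = 0.0516), T + E2 mouse 1 (-1.27, 0.0668) or T + E2 mouse 2 (-1.35, 0.0770). Itga1, a receptor for basement membrane collagen on muscle, vessel and connective tissue cells, rose. It had 25.7, 26.4 and 21.7 CPM in CON mice and 35.3, 36.1 and 29.2 CPM in T + E2 mice (chromosome 13, 114958079 to 115101964), and the third mouse of each group was its lowest. On the log2 scale the change was 0.45 (SE 0.12, adjusted p = 0.0387). That call was kept with 1 of the 6 mice left out, T + E2 mouse 3 (adjusted p = 0.0250). Without any other mouse it was lost, with adjusted p values of 0.0658, 0.0609 and 0.117 without CON mice 1, 2 and 3 and of 0.110 and 0.117 without T + E2 mice 1 and 2. Itga2 (log2 fold change -0.58, adjusted p = 0.358), known from epithelia and platelets, and Itga10 (-0.21, adjusted p = 0.564), known from cartilage, did not pass. Of 8 fibroblast markers 1 (Gsn) passed as higher and 0 as lower by edgeR, DESeq2 and limma, with 0 lower at an unadjusted p under 0.05, and 0 were higher and 1 lower without both seminal vesicle mice. Their median log2 fold change was -0.11. Their summed CPM was 3152 to 3584 in the CON and 4321 to 4561 in T + E2 mice, and without Gsn it overlapped, at 1452 to 1646 and 1570 to 1929 CPM. Their part in the Itga11 result was not tested.

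Among the alpha subunits that bind the RGD motif of fibronectin and related proteins, Itga8 rose and Itgav, Itga5 and Itga2b did not pass. Itga8 pairs with Itgb1 on mesenchymal and smooth muscle cells and binds nephronectin. It had 14.6, 13.5 and 12.6 CPM in CON mice and 19.1, 18.2 and 19.7 CPM in T + E2 mice (chromosome 2, 12106632 to 12301922). The spread within each group was smaller than the gap between the groups. This was a log2 fold change of 0.49 (SE 0.11, adjusted p = 0.0186). The call was lost without CON mouse 2 (adjusted p = 0.0573), CON mouse 3 (0.0661) or T + E2 mouse 1 (0.0585), and with limma on log2(FPKM + 0.1) (0.0642). Itga5, the fibronectin receptor subunit, had the highest mean FPKM of these 4 genes. It had 82.0, 28.4 and 29.5 CPM in CON mice and 26.7, 27.4 and 31.0 CPM in T + E2 mice. CON mouse 1 was far above the rest, which overlapped. For Itga5 the log2 fold change was -0.72 (SE 0.38, adjusted p = 0.226), and without CON mouse 1 it was -0.03 (adjusted p = 0.879). Itgav, the alpha subunit shared by Itgb3, Itgb5, Itgb6 and Itgb8, had 62.5, 49.99 and 46.9 CPM in CON mice and 78.5, 30.1 and 68.3 CPM in T + E2 mice. T + E2 mouse 2 was the lowest of all 6, whereas the other T + E2 mice were the highest. For Itgav the log2 fold change was 0.15 (SE 0.31, adjusted p = 0.772), and without T + E2 mouse 2 it was 0.47 (adjusted p = 0.0878).

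The beta subunits outside leukocytes were the class with the most calls, as 4 of 6 rose, namely Itgb1, Itgb5, Itgb6 and Itgb8. Of all tested genes 10.4% rose. With DESeq2 4 of the 6 rose (9.84% of all genes), and with limma on log2(FPKM + 0.1) 3 (8.04%). Without both seminal vesicle mice 0 of the 6 passed as higher (5.25%). Itgb6 is an epithelial subunit that, with Itgav, binds latent TGF-beta. The gene (ENSMUSG00000026971, chromosome 2, 60598292 to 60722643, minus strand) was sparse, with 25, 30 and 34 counts in CON mice and 82, 73 and 56 counts in T + E2 mice. These are 1.65, 1.97 and 2.14 CPM and 5.67, 4.44 and 3.73 CPM. The groups did not overlap, and the T + E2 mice were the more scattered. On the log2 scale the change was 1.26 (SE 0.24, adjusted p = 0.00969), a 2.39-fold higher level. Itgb8, the other partner of Itgav that binds latent TGF-beta, had 17.6, 15.2 and 13.0 CPM in CON mice and 23.6, 26.5 and 24.9 CPM in T + E2 mice (chromosome 12, 119158022 to 119238802). All T + E2 mice were above all CON mice. This was a log2 fold change of 0.71 (SE 0.13, adjusted p = 0.00819). Itgb6 and Itgb8 passed with any 1 mouse left out, and without both mice that held seminal vesicle transcripts they had log2 fold changes of 1.30 (adjusted p = 0.0794) and 0.66 (adjusted p = 0.0828).

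The abundant beta subunits rose by less. Itgb1 had 292, 283 and 284 CPM in CON mice and 379, 416 and 331 CPM in T + E2 mice (chromosome 8, 128685654 to 128733200). The CON mice were close together and all below the T + E2 mice. For Itgb1 the log2 fold change was 0.39 (SE 0.11, adjusted p = 0.0380). Itgb5, a vitronectin receptor subunit with Itgav, had 87.1, 84.2 and 86.2 CPM in CON mice and 111, 98.3 and 115 CPM in T + E2 mice (chromosome 16, 33829665 to 33949153). These groups too were separate, with T + E2 mouse 2 the nearest to the CON mice. That gave a log2 fold change of 0.34 (SE 0.09, adjusted p = 0.0393). With 1 mouse left out at a time, each of these genes passed in 1 of 6 fits. The log2 fold changes of these fits were 0.31 to 0.47 for Itgb1 and 0.29 to 0.40 for Itgb5. Itgb1 passed only without T + E2 mouse 3 (adjusted p = 0.0205). It otherwise had adjusted p values of 0.0673, 0.0957 and 0.0985 without CON mice 1, 2 and 3 and of 0.104 and 0.0946 without T + E2 mice 1 and 2. Itgb5 passed only without T + E2 mouse 2 (0.0228) and otherwise had 0.0834, 0.126 and 0.103 without CON mice 1, 2 and 3 and 0.127 and 0.0893 without T + E2 mice 1 and 3. Itgb3, the platelet and vessel subunit, did not pass at a log2 fold change of -0.25 (adjusted p = 0.370), and neither did Itgb4. Basal epithelial markers, from cells that carry Itgb4, were 250.1 to 342 CPM in sum in the CON and 319.9 to 394 CPM in T + E2 mice. Of these 6 markers 2 (Trp63 and Pdpn) were higher and 1 (Ngfr) lower, beside 10.4% and 9.25% of all tested genes. Without both seminal vesicle mice 0 were higher and 0 lower.

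Of the leukocyte integrins, Itgam rose and the other tested ones did not pass. Itgam (CD11b) pairs with Itgb2 on monocytes, macrophages and neutrophils as a receptor for complement and Icam1. The gene (ENSMUSG00000030786, chromosome 7, 128062640 to 128118491, plus strand) had 11.8, 4.66 and 8.35 CPM in CON mice and 25.6, 27.4 and 26.2 CPM in T + E2 mice. The T + E2 mice were close together, and the CON mice were scattered and lower. On the log2 scale the change was 1.67 (SE 0.28, adjusted p = 0.00485), a 3.19-fold higher level, and it passed in all of 17 alternatives. A second entry with the symbol Itgam (ENSMUSG00000108596, 128062683 to 128128160) shares 3450 of the 5024 exonic bases of the first on the same strand, with 99.9% identity. It had 74 counts in CON mouse 2, where the first entry had 71, and at most 1 count in any other mouse, so it was not tested. Reads could be split between both entries. With the counts of both added, the log2 fold change was 1.42 (adjusted p = 0.000482), and without CON mouse 2 it was 1.39 (adjusted p = 0.00238).

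Itgb2, the partner of Itgam, had 12.8, 9.18 and 9.30 CPM in CON mice and 11.6, 15.1 and 13.7 CPM in T + E2 mice. These groups overlapped, and the log2 fold change was 0.37 (SE 0.18, adjusted p = 0.181). The ratio of Itgb2 to Itgam in FPKM was 1.69 to 3.05 in the CON and 0.702 to 0.852 in T + E2 mice, without overlap, with the first Itgam entry alone. With the counts of both entries over the length of the first, it was 1.49 to 1.72 in CON mice and again 0.702 to 0.852 in T + E2 mice. The other leukocyte subunits did not pass. Itgal of lymphocytes had a log2 fold change of -0.15 (adjusted p = 0.8005), Itgax of dendritic cells -0.17 (adjusted p = 0.607), Itgae, which binds E-cadherin, 0.55 (adjusted p = 0.178), and Itgb7, its partner, -0.36 (adjusted p = 0.314). Itgad was at 0 to 4 counts in every mouse and was not tested, and over 758 bases its transcript is 94.99% identical to that of Itgax. Of the leukocyte markers, 0 of 17 tested passed in edgeR (2 were higher and 0 lower at an unadjusted p under 0.05, and 1 passed with DESeq2 and 0 with limma). The list includes Itgb2 itself. Summed leukocyte markers were 767.2, 489.8 and 422.6 CPM in CON mice and 570.2, 780.2 and 600.8 CPM in T + E2 mice. The groups overlapped, but only through CON mouse 1, as CON mice 2 and 3 lay below every T + E2 mouse. Without CON mouse 1 the log2 fold change was 0.54 for Itgb2 (adjusted p = 0.0654), 0.83 for Itgae (0.0586) and 0.33 for Itgal (0.408). It was -0.12 for Itgax (0.783) and -0.21 for Itgb7 (0.609). The neutrophil marker Ly6g was at or below the limit of detection in every mouse. Ptprc, found on all leukocytes, had a log2 fold change of 0.49 (adjusted p = 0.301), and the macrophage marker Adgre1 0.31 (adjusted p = 0.475). The part of leukocyte content in the Itgam result was not tested.

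The remaining members did not pass. Itga9, a receptor for tenascin, had 14.6, 14.7 and 16.3 CPM in CON mice and 16.2, 15.1 and 14.5 CPM in T + E2 mice, at a log2 fold change of 0.01 (SE 0.11, adjusted p = 0.969). Its groups overlapped. Itga4, which binds Vcam1, had 0.39 (adjusted p = 0.338), and 0.74 without CON mouse 1 (adjusted p = 0.0482). Itgbl1, a secreted protein with repeats like those of the beta subunits, had 13.2, 12.4 and 14.8 CPM in CON mice and 14.6, 20.3 and 18.5 CPM in T + E2 mice. T + E2 mouse 1 lay within the CON range. For Itgbl1 the log2 fold change was 0.40 (SE 0.15, adjusted p = 0.101).

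**Figure D4:**
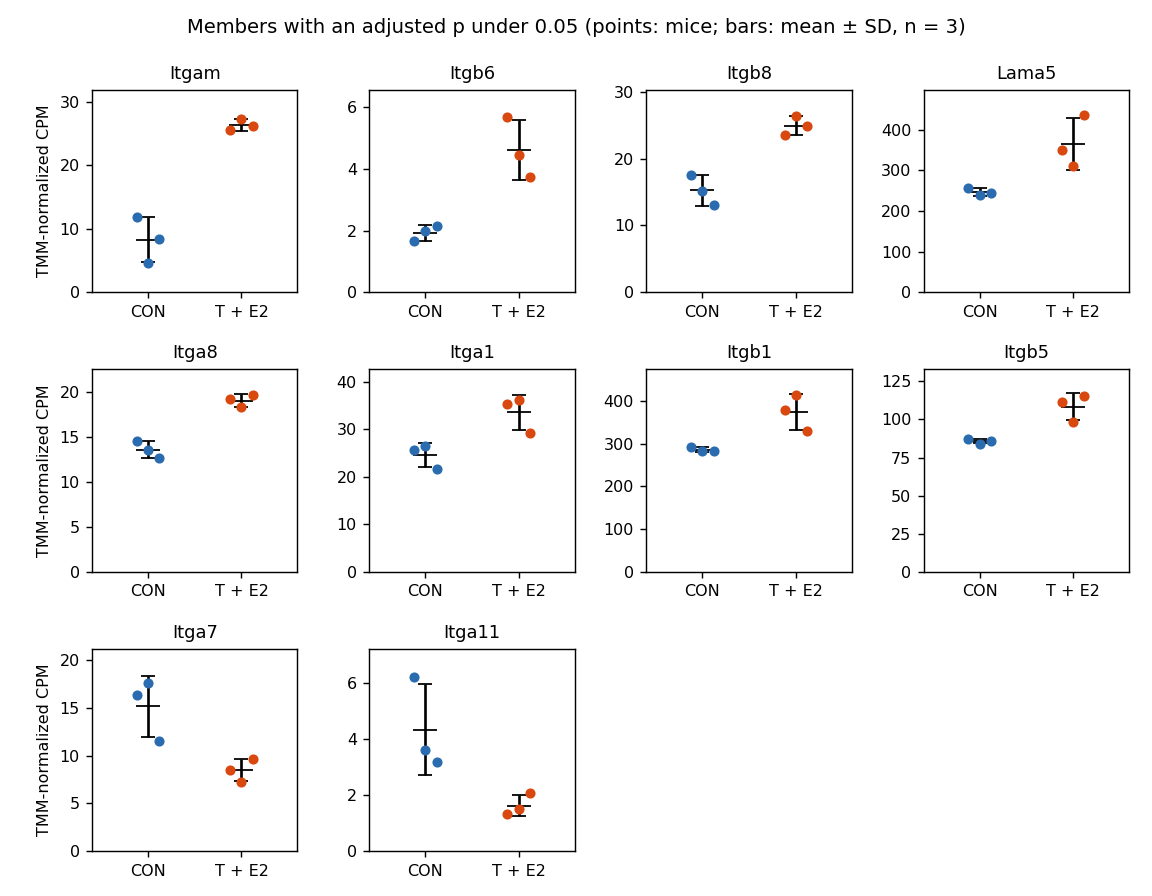
TMM-normalized CPM of the 10 members with an adjusted p under 0.05, 1 panel each, ordered from the largest rise to the largest fall; points are mice and bars the group mean ± SD (n = 3), and every axis starts at 0. In each panel the T + E2 mice lie all above or, for Itga7 and Itga11, all below the CON mice.

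Promoter windows of RefSeq (GRCm38.p6, 250 bases before to 50 after the start of transcription) were available for 24 members, as 27 windows. They are shown for the 3 members described with a log2 fold change beyond 1, to let the hormone response elements that were searched for be read in place. The letters searched, on both strands, were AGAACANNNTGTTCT (androgen response element), GGTCANNNTGACC (oestrogen response element), their half-sites AGAACA and GGTCA, which the full elements contain, the GC box GGGCGG and the TATA box TATAAA. Capitals mark the matches. Itgam (chr7:128062390-128062689, plus strand) has a GC box on the minus strand, from position -47 relative to the start. Itga11 (chr9:62677605-62677904, plus strand) has an oestrogen half-site on the minus strand, from position -200. Itgb6 (chr2:60722554-60722853, minus strand) has none of the 6, and neither has the window of its second start.
Itgam: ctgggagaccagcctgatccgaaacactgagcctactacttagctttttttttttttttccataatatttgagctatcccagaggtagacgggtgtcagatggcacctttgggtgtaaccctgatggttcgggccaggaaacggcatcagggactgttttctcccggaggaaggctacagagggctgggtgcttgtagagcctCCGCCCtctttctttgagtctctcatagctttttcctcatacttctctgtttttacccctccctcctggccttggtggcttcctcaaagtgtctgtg
Itgb6: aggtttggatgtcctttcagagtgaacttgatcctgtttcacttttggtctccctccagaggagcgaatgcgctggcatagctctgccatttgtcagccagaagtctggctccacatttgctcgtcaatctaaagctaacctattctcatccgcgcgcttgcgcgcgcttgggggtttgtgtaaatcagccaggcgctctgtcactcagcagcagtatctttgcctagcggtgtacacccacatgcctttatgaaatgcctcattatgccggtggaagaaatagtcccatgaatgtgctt
Itga11: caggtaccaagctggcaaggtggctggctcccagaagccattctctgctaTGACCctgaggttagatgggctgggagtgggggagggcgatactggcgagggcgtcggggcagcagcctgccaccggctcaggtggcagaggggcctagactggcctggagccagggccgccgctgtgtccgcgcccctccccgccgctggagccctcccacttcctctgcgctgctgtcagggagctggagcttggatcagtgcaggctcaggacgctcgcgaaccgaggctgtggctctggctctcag
Neither full element occurs in the 27 windows, and both are rare in all 32544 windows of the table, at 0.00922% for the androgen and 0.0707% for the oestrogen element. The androgen half-site is in 6 of the 27 windows (22.2%, against 18.9% of all windows), and so is the oestrogen half-site (22.2% against 40.5%). The GC box is in 13 (48.1% against 35.9%) and the TATA box in 0 (13.6% of all windows). These matches describe letters in short windows and not bound sites.

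Genes that work with laminins and integrins were counted from lists of the basement membrane, of hemidesmosomes and other laminin receptors, of other integrin ligands and of integrin adaptors. In the basement membrane list 0 of 20 rose and 3 fell by edgeR, with a median log2 fold change of -0.11, where 10.4% of all tested genes rose and 9.25% fell. At an unadjusted p under 0.05 the counts were 3 and 6 (17.4% and 17.1% of all genes), with DESeq2 0 and 5 (9.84% and 8.37%), and with limma 0 and 3 (8.04% and 8.3%). The largest fall was that of Col4a6, a collagen IV chain of epithelial and smooth muscle basement membranes. It had 651, 492 and 651 CPM in CON mice and 39.3, 25.2 and 31.2 CPM in T + E2 mice. Every T + E2 mouse was far below every CON mouse. Its log2 fold change was -4.23 (SE 0.20, adjusted p = 1.66e-05), an 18.7-fold lower level. Nid2, which links laminin to collagen IV, fell from 14.8, 17.5 and 13.9 CPM to 9.05, 6.45 and 7.20 CPM (log2 fold change -1.03, SE 0.17, adjusted p = 0.00465). Egflam, a matrix ligand of dystroglycan, fell by 0.86 on the log2 scale (adjusted p = 0.00662). The summed list was 2026 to 2267 CPM in the CON and 1450.1 to 1664 CPM in T + E2 mice. Without Col4a6 the sums overlapped, at 1375 to 1719 and 1425 to 1625 CPM.

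Among 13 tested genes of hemidesmosomes and other laminin receptors, Bcam rose and Plec fell. Bcam, a receptor for Lama5, had 62.1, 73.4 and 69.2 CPM in CON mice and 105, 114 and 126 CPM in T + E2 mice. The groups did not overlap, and the log2 fold change was 0.75 (SE 0.11, adjusted p = 0.00255). Plec, which ties Itgb4 to keratin, had a log2 fold change of -0.36 (adjusted p = 0.0368). Of 22 tested integrin ligands 6 rose and 2 fell, beside 10.4% and 9.25% of all tested genes. The DEGs among them were Spp1 (log2 fold change 1.35, adjusted p = 0.0183), a ligand of the Itgav integrins, Icam2 (1.29, adjusted p = 0.0136), a ligand of the Itgb2 integrins, Mfge8 (1.21, adjusted p = 0.00155), which bridges dying cells to Itgav, and Lgals3 (1.16, adjusted p = 0.000754), a lectin that binds integrin sugars. Vcam1 and Cdh1 rose too, and Tnc and Thbs2 fell. Among 32 tested adaptors 2 rose (Tns4 and Bcar1) and 4 fell (Tln2, Parvb, Tns3 and Actn4), none beyond a log2 fold change of 1 in either direction, and the median was -0.19. Of all tested genes 10.4% rose and 9.25% fell. At an unadjusted p under 0.05 the adaptor counts were 2 higher and 9 lower (17.4% and 17.1% of all genes). With DESeq2 they were 2 and 6 (9.84% and 8.37%), and with limma 2 and 5 (8.04% and 8.3%). The summed adaptors were 3892 to 4084 CPM in the CON and 3138 to 3681 CPM in T + E2 mice. These sums stayed separate without Actn4. Tln2, a talin that binds the tails of beta subunits, had 81.8, 91.1 and 87.7 CPM in CON mice and 43.6, 44.0 and 57.9 CPM in T + E2 mice. These groups were separate, at a log2 fold change of -0.84 (adjusted p = 0.00326). With both seminal vesicle mice left out, the counts of higher and lower genes were 0 and 2 for the basement membrane, 1 and 0 for the receptors, 3 and 0 for the ligands and 2 and 2 for the adaptors, where 5.25% of all genes were higher and 3.4% lower.

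**Figure D5:**
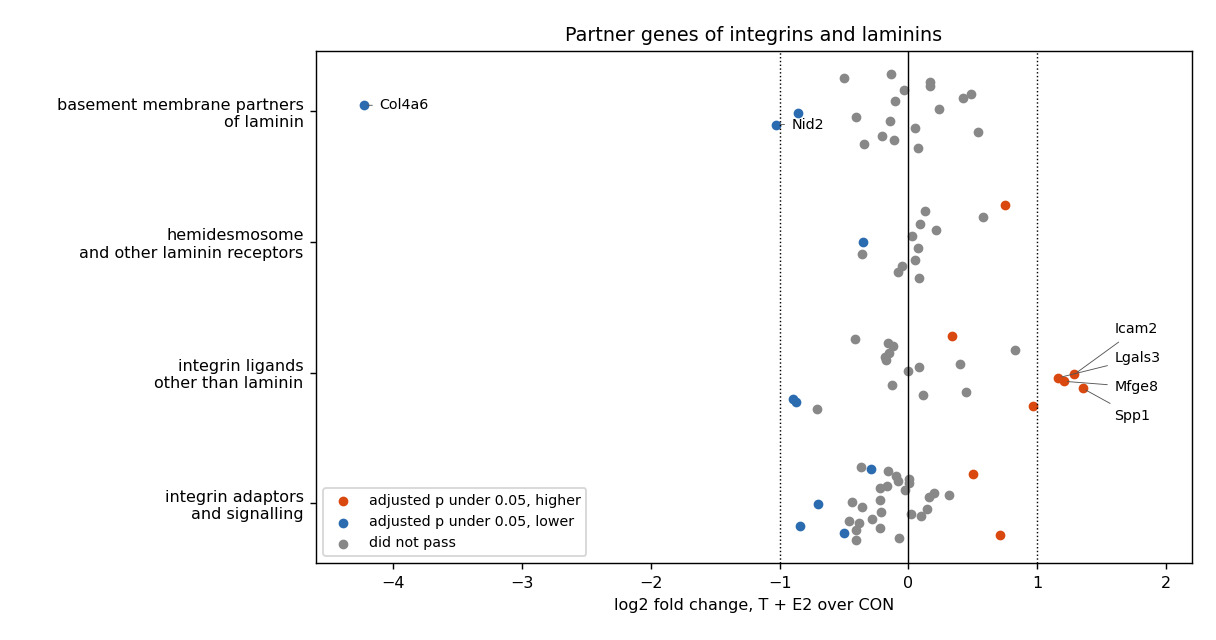
Log2 fold change of T + E2 over CON for the tested genes of the 4 partner lists, 1 point per gene; orange points rose and blue points fell at an adjusted p under 0.05, grey points did not pass, and dotted lines mark a log2 fold change of 1 in either direction. Col4a6 lies far to the left at -4.23, and the named genes to the right are the 4 ligands beyond 1.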

How the data were processed

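RNA of prostate tissue from 6 mice was sequenced as paired-end TruSeq libraries. The authors deposited, for each gene and mouse, whole-number counts without normalization, and FPKM that the authors computed from these counts, gene length and library total. The submitters' processing notes name TopHat, Bowtie2 and HTSeq. Versions, annotation and strand setting are not given in the sources used here, so reads of overlapping genes may be shared; coordinates lie on GRCm38 and were compared with GENCODE M21.

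Counts were tested with edgeR 4.0.16 in R 4.3.3: filterByExpr (minimum count 10, minimum total 15), TMM scaling, and the quasi-likelihood test between 3 CON and 3 T + E2 mice, with Benjamini-Hochberg adjustment over 15580 genes. Single-gene values are TMM-normalized CPM. The biological coefficient of variation was 18.0%. The SE of a log2 fold change was its value over the root of F. The thresholds are those of the study's methods, which name DESeq2. The code was tested on simulated data. Within groups, counts of each pair of mice differed beyond sampling noise (chi-square per degree of freedom 17.8 to 39.0), so each mouse was kept as a replicate. Replicate numbers do not pair the mice: deviations of same-numbered mice correlated at -0.052, 0.028 and 0.046. Total counts were 14819273, 14846522 and 16026544 in CON and 15135003, 16555549 and 14816146 in T + E2 mice.

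Of the matched genes, 1 is not reported here, nor are the chain shares that depend on it. Every other member was accounted for. Values per mouse are given for members with an adjusted p under 0.05 and for the member with the highest mean FPKM of each role. Counts are given for those near the detection limit. Up to 3 DEGs per partner list were to be named. Those of the basement membrane have values per mouse, and those of the ligands a log2 fold change and adjusted p alone. Lgals3, Egflam, Bcam, Plec and Tln2, other genes named beside small counts, and the values of Lama3, Lamc3 and Itgav were chosen after their values were seen. Members and lists were chosen with earlier results of these data known. Alternatives were other scalings and filters, DESeq2 1.42.0, limma 3.58.1 on log2 FPKM with 0.1, 1 or 0.01 added, a replicate block, and leaving out each mouse in turn. Adding the counts of both Itgam entries and leaving out both seminal vesicle mice were chosen after seeing the data. Similar transcripts were found with BLAST+ (90% identity over 100 bases). Figures were drawn with matplotlib 3.10.9.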

Additional observations from a re-analysis of the deposited data

How the results depend on the processing

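Of 168 values of the 10 members that passed, recomputed under up to 17 alternatives each, 116 kept the call, 52 lost it and 0 changed sign. Of 434 values of the 26 other tested members 5 gained a call, those of Itga3 and Lama3 with DESeq2, of Itga3 without T + E2 replicate 2, of Lama3 without T + E2 replicate 3 and of Itga4 without CON replicate 1. Some of these members changed sign without a call. Their log2 fold changes ranged from -0.46 to 0.33 for Itgal, -0.11 to 0.47 for Itgav and -0.17 to 0.42 for Itga2b. The ranges were -0.12 to 0.19 for Itgb4, -0.04 to 0.12 for Lamb2 and -0.04 to 0.06 for Itga9. The number of members that rose was 8, that of members that fell 2, and 2 and 1 were DEGs. With 1 mouse left out at a time the number that rose ranged from 3 to 8 and the number that fell from 0 to 2, and lower DEGs numbered 0 to 2. In these fits 12.2 to 17.2% of all tested genes passed, against 19.6% with all mice. With a minimum FPKM of 1 in 3 mice 1 member fell, 1 was a higher DEG and 0 were lower DEGs, since Itga11 and Itgb6 were not tested. In limma 5 rose with 0.1, 1 or 0.01 added to the FPKM, 1 was a higher DEG with 0.1 or 1 added, and 0 were lower DEGs with 1 added, which shrinks the change of low genes. With the replicate block 5 rose, 0 fell and 0 were lower DEGs; the mice are not paired, and 2174 of all genes passed in place of 3061. Without CON mouse 2 and T + E2 mouse 2, an alternative chosen after seeing the data, 2 rose, 0 fell, 1 was a higher DEG and 0 were lower DEGs, with 4 mice in the fit; the cause was not tested. Itga1 was kept in 7 of 17 alternatives and Itgb5 in 5 of 17. Each of the 56 recomputed differences in chain share moved by less than the larger of the SDs of both groups. That of Lama5, 6.36 percentage points, was 4.21 without T + E2 replicate 3, and those of Lama1 (without T + E2 replicate 2) and Lama3 (without CON replicate 1 or T + E2 replicate 2), whose groups overlapped, changed sign. Depth limits Itgb6 and Itga11, with 19 to 94 counts per mouse.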

Other observations

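The marker lists not used above were counted in the same way. Of all tested genes 10.4% passed as higher and 9.25% as lower, and 5.25% and 3.4% without both seminal vesicle mice. Of 5 tested mast cell markers 3 passed as lower, and their summed level was 28.7 to 41.9 CPM in the CON and 15.5 to 24.3 CPM in the T + E2 mice. Of 7 tested endothelial markers Vwf passed as higher and 0 as lower. Of 8 luminal epithelial markers 2 passed as higher (Epcam and Cdh1) and 2 as lower (Krt18 and Pbsn). Without both seminal vesicle mice 1 mast cell marker passed as lower, 0 endothelial markers passed, and 1 luminal marker passed in each direction. Of 7 skeletal muscle and 2 tested platelet markers 0 passed by edgeR, 0 had an unadjusted p under 0.05, 0 passed with limma, and 1 platelet marker passed with DESeq2. Some members share exonic bases with another annotated gene: Itga1 685 bases with Gm49395 on the same strand, Itga8 372 bases with E030013I19Rik on the opposite strand and Itga7 9 bases with Mettl7b on the opposite strand. Over 343 bases the transcript of Itgb5 is 99.7% identical to that of Gm38317. No such overlap or similarity was found for Itgb6, Itgb8, Itga11, Lama5 and Itgb1.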
